A study of Homo sapiens with 16 samples.

Results

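The genes described here are 29 enzymes and regulators of cholesterol and fatty acid synthesis, taken as a list of gene symbols and measured by RNA sequencing in 2 human cancer cell lines. They are 29 of the 21453 gene symbols in the expression tables, and 29 of the 13827 genes that passed the filter on low values. The list holds 7 genes of the mevalonate steps, 11 of the squalene and sterol steps, 5 of sterol sensing and transport, and 6 of fatty acid and lipid synthesis. T-47D is a breast cancer line and ECC-1 an endometrial cancer line, and both respond to estrogen. The study treated each line for 8 h with 17β-estradiol at 10 nM, bisphenol A (BPA, a plastics monomer) at 100 nM, genistein (a soy isoflavone) at 100 nM, or the vehicle DMSO at 0.02%. All groups had first spent 5 days in RPMI-1640 without phenol red and with 10% charcoal-treated serum, a medium poor in steroids and in serum lipids, on dishes of 100 mm. Each of the 8 groups, a line with a treatment, had 2 libraries, which makes 16. The labels do not say whether the 2 libraries of a group came from separate cultures, so the p-values below measure only the spread between these samples.

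Cells make cholesterol from acetyl-CoA through mevalonate, farnesyl diphosphate, squalene and lanosterol, and they make fatty acids from the same acetyl-CoA through malonyl-CoA. Both routes are switched on by SREBP transcription factors, the products of SREBF1 and SREBF2, which SCAP escorts out of the endoplasmic reticulum when sterols are scarce and INSIG proteins hold back when sterols are plentiful. In breast and endometrial cancer cells these routes supply membrane lipid for growth.

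Levels are RPKM (reads per transcript kilobase and per M reads, as computed by the authors) after a scale factor for each library, so levels of different genes can be set side by side per length. Differences are on the log2(scaled RPKM + 0.5) scale, each from 1 limma fit over all 16 libraries, and a gene was called at a Benjamini-Hochberg adjusted p under 0.05 over all 13827 genes. The estimated depth was 17.3 to 29.4 M reads per library, at which a 2 kb transcript at 1 RPKM rests on 34.6 to 58.8 reads. Luminal breast markers (GATA3, FOXA1, SPDEF and TRPS1) summed to 642 to 893 RPKM in T-47D libraries and to 5.31 to 7.44 RPKM in ECC-1 libraries. Markers of Mullerian epithelium (PAX8, MSX1, EMX2, SOX17 and HOXA10) summed to 0.439 to 0.745 RPKM in T-47D and to 328 to 372 RPKM in ECC-1. Of 5 leukocyte markers only LYZ passed 1 RPKM, and PTPRC and CD3E stayed at or near 0. The first estradiol library of each line stood apart, with a median correlation to the rest of its line of 0.9801 in T-47D and 0.9873 in ECC-1, where the other ECC-1 libraries had 0.9921 to 0.9966. In T-47D the second estradiol library was next lowest at 0.9893, and the 6 libraries of the other groups had 0.9916 to 0.9939. Results with estradiol are therefore given with and without those 2 libraries.

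A CCAAT box was found in a larger share of the promoters of these genes than of promoters at large. The promoter of SREBF2 is shown because it holds a sterol response element. Those of HMGCS1, MVK and SC4MOL are examples of the genes that moved together between T-47D libraries, as given in the last paragraphs. The window from 250 bases before to 50 bases after the start was found in the RefSeq table (GRCh38.p14) for 25 of the 29 genes. On either strand, CCAAT occurred in 17 of the 25 windows (68.0%), against 35.7% of 27305 promoters. HMGCS1, MVK and SC4MOL had 2, 5 and 4 matches. Of other genes that moved likewise between T-47D libraries, CYP51A1 had 0, LPIN1 0 and NSDHL 5. SREBF1 and SREBF2, which did not move with them, had 0 and 1. Whether CCAAT goes with that movement was not tested. The sterol response element TCACNCCAC occurred in 1 of the 25, that of SREBF2 at -133 from the start, against 1.15% of all promoters. The E-box CACGTG occurred in 4 of the 25, against 7.43% of all promoters. The palindromic estrogen response element (GGTCA, any 3 bases, TGACC) occurred in 0 of the 25 windows and in 0.0659% of all promoters. No match overlaps another in the stretches printed here, and a match is a string of letters only. The 250 bases before each start are given 5′ to 3′ along the gene, with CCAAT (or ATTGG, its other strand) and the sterol response element in capitals. They lie at chr22:41832855-41833104 (plus strand) for SREBF2, chr5:43313413-43313662 (minus strand) for HMGCS1, chr12:109573544-109573793 (plus strand) for MVK and chr4:165327419-165327668 (plus strand) for SC4MOL, whose current symbol is MSMO1.
SREBF2: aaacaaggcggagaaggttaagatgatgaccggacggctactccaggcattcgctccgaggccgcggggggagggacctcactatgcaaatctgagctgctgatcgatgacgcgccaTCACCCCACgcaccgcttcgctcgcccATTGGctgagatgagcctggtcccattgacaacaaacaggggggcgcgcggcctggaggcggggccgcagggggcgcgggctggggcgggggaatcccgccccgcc
HMGCS1: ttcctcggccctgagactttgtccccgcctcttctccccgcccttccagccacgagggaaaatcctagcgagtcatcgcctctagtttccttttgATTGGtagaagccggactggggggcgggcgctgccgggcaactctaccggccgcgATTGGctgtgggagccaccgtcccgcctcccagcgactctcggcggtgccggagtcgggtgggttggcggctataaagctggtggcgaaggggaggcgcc
MVK: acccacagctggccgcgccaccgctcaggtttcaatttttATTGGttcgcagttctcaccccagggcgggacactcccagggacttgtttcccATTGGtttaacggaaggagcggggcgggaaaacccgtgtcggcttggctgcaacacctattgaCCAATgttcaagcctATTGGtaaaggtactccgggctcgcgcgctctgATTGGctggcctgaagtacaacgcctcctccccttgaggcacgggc
SC4MOL: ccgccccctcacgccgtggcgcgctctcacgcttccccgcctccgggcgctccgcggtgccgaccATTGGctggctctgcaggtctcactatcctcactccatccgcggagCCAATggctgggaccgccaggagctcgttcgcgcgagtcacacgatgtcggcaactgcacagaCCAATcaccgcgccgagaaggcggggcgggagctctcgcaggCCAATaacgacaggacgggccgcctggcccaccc

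The lines differed in which steps of lipid synthesis they expressed most. Without hormone, in DMSO, the genes with the highest levels in T-47D were SCD, which makes monounsaturated fatty acids, at 343 RPKM, FASN, the fatty acid synthase, at 256 RPKM, and ACLY, which makes cytosolic acetyl-CoA from citrate, at 173 RPKM. In ECC-1 they were ACAT2, the thiolase that starts the mevalonate route, at 223 RPKM, FDFT1, the squalene synthase, at 198 RPKM, and FDPS, the farnesyl diphosphate synthase, at 197 RPKM. The ECC-1 values of FDFT1 (207 and 189 RPKM) and FDPS (206 and 189 RPKM) lay within each other's spread. SQLE, the squalene epoxidase, ranked 13 of the 29 in T-47D and 28 in ECC-1. At the bottom of the 29 was LPIN1, a phosphatidate phosphatase, in both lines, at 5.88 RPKM in T-47D and 3.35 RPKM in ECC-1.

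**Figure D1:**
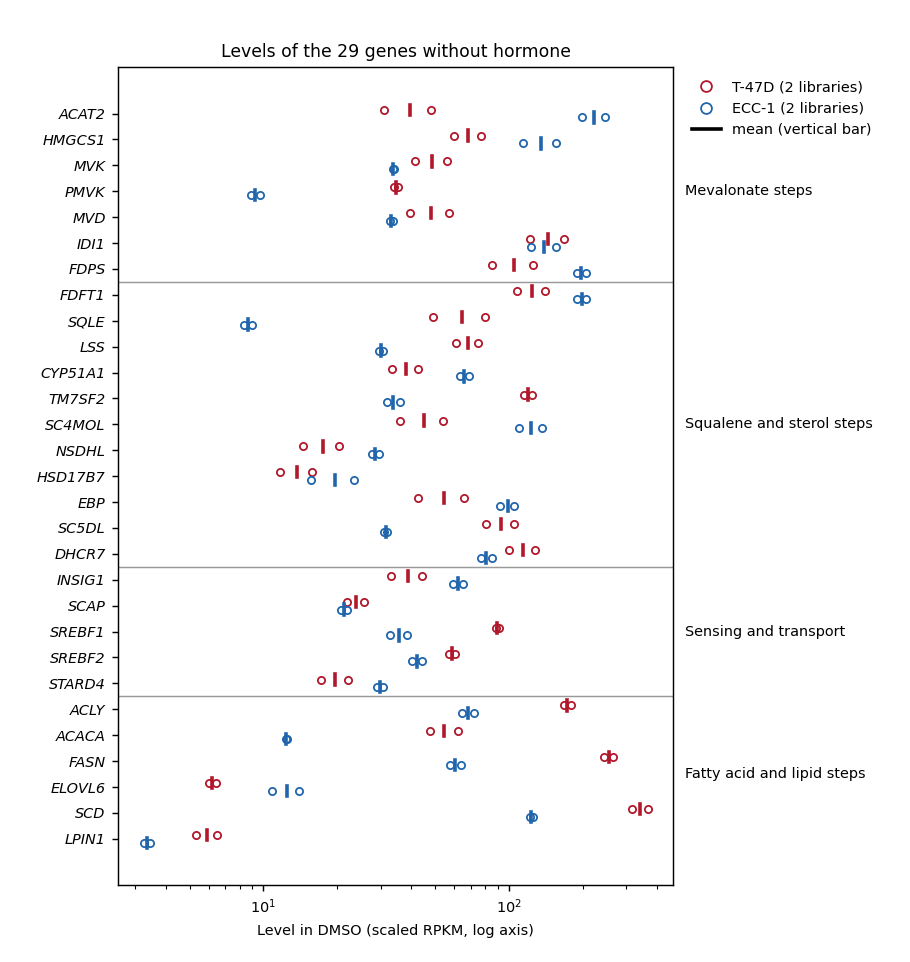
Level of each gene in DMSO, in scaled RPKM on a log axis, for the 2 T-47D libraries (red) and the 2 ECC-1 libraries (blue), with a bar at each mean. Points of SQLE, ACACA and FASN lie far to the right in T-47D, and those of ACAT2 and SC4MOL far to the right in ECC-1.

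Between the lines, 24 of the 29 genes differed in DMSO, with T-47D higher for 13 of them and lower for 11. The lines differ in most genes: 76.7% of all tested genes were called, 39.6% higher and 37.1% lower, so the count of 24 stands near what genes at large gave. The median difference of the 29 was 0.46 on the log2 scale, against 0.04 over all tested genes. In bulk samples such as these, fewer cells of a type and less RNA per cell cannot be told apart. Fibroblast markers (COL1A1, COL1A2, COL3A1, DCN and LUM) also differed, summing to 16.9 to 31.8 RPKM in T-47D and 9.38 to 15.5 RPKM in ECC-1, nearly all from COL1A1. The other markers stood low and did not agree: COL3A1 was lower in T-47D (0.0364 to 0.289 RPKM, against 0.345 to 0.421 RPKM in ECC-1). DCN and LUM were higher in T-47D, at up to 1.19 and 1.18 RPKM, and COL1A2 overlapped. The part of these markers in the differences was not tested.

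The fatty acid genes stood mostly on the T-47D side, with 5 of 6 higher, 1 lower and a median difference of 1.40. FASN had 245 and 267 RPKM in T-47D and 57.3 and 63.9 RPKM in ECC-1. ACACA, the acetyl-CoA carboxylase that makes malonyl-CoA, had 47.5 and 61.8 RPKM in T-47D and 12.3 and 12.4 RPKM in ECC-1. In both genes the 2 T-47D libraries lay far above the 2 ECC-1 libraries. FASN was 4.20-fold higher in T-47D (log2 difference 2.07, SE 0.25, limma adjusted p = 1.65e-06) and ACACA 4.25-fold higher (2.09, SE 0.15, adjusted p = 6.49e-09). SCD had 369.6 and 316 RPKM in T-47D and 125 and 122 RPKM in ECC-1, a log2 difference of 1.46 (SE 0.15). ACLY was higher by 1.34 and LPIN1 by 0.72 on the same scale. The exception was ELOVL6, which lengthens palmitate, with 6.39 and 5.98 RPKM in T-47D and 13.99 and 10.8 RPKM in ECC-1, a log2 difference of -0.94 (SE 0.17, adjusted p = 0.000133).

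The 11 squalene and sterol genes were split, with 5 higher, 5 lower and 1 not called. SQLE had 79.8 and 49.3 RPKM in T-47D and 8.98 and 8.31 RPKM in ECC-1, the widest gap of the 29. This was a 6.92-fold difference (2.79 on the log2 scale, SE 0.21, adjusted p = 8.8e-09). Over all 8 libraries of a line, whatever the treatment, SQLE ran from 49.3 to 79.8 RPKM with a median of 62.7 in T-47D, and from 6.92 to 8.98 RPKM with a median of 7.56 in ECC-1. The lowest T-47D library thus stood well above the highest ECC-1 library. TM7SF2, a sterol reductase, had 124 and 115 RPKM in T-47D and 31.7 and 36.0 RPKM in ECC-1 (log2 difference 1.81). SC5DL (now SC5D), a late sterol desaturase, had 105 and 80.4 RPKM in T-47D and 31.9 and 31.1 RPKM in ECC-1 (1.53). LSS, the lanosterol synthase, was higher by 1.15 and DHCR7, which makes the final reduction to cholesterol, by 0.48. The 5 lower genes were led by SC4MOL, a methylsterol oxidase. It had 53.9 and 36.2 RPKM in T-47D and 137 and 109.6 RPKM in ECC-1 (log2 difference -1.46, SE 0.21, adjusted p = 1.34e-05). CYP51A1, the lanosterol demethylase, differed by -0.79, NSDHL, which removes a carboxylated methyl group, by -0.72, EBP, the sterol isomerase, by -0.89 and FDFT1 by -0.68. HSD17B7, a sterol ketoreductase, had 15.8 and 11.6 RPKM in T-47D and 23.4 and 15.7 RPKM in ECC-1, groups that overlapped, and was not called (log2 difference -0.48, adjusted p = 0.0581).

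Of the 7 mevalonate genes, 1 was higher and 3 were lower in T-47D. ACAT2 had 48.2 and 30.9 RPKM in T-47D and 247 and 198 RPKM in ECC-1, which put both T-47D libraries far below. The level was thus 5.67-fold lower (-2.50 on the log2 scale, SE 0.21, adjusted p = 2.69e-08). HMGCS1, the cytosolic HMG-CoA synthase, had 76.7 and 59.8 RPKM in T-47D and 156 and 114 RPKM in ECC-1 (-0.97), and FDPS differed by -0.93. PMVK, the phosphomevalonate kinase, went the other way with 34.0 and 35.4 RPKM in T-47D and 9.64 and 8.89 RPKM in ECC-1 (log2 difference 1.85, SE 0.19, adjusted p = 2.38e-07). MVK, the mevalonate kinase (0.51, adjusted p = 0.0755), MVD, the mevalonate diphosphate decarboxylase (0.51, adjusted p = 0.137), and IDI1, the isopentenyl diphosphate isomerase (0.05, adjusted p = 0.817), were not called. ACAT2 overlaps TCP1 and SOD2 on the opposite strand by 397 and 1106 bases in the GENCODE annotation. HMGCS1, FDPS and LSS also overlap genes on the opposite strand, by 703, 476 and 448 bases. SREBF2, FDFT1, IDI1, ACLY, CYP51A1, STARD4 and MVK do so by 280 bases or fewer. The libraries keep no strand, so reads of these partners cannot be told apart. FDPS has 8 annotated pseudogenes, CYP51A1 has 3, HSD17B7 has 2 and SCD has 1, and the sources used here do not give how the authors' counting shared reads with them.

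**Figure D2:**
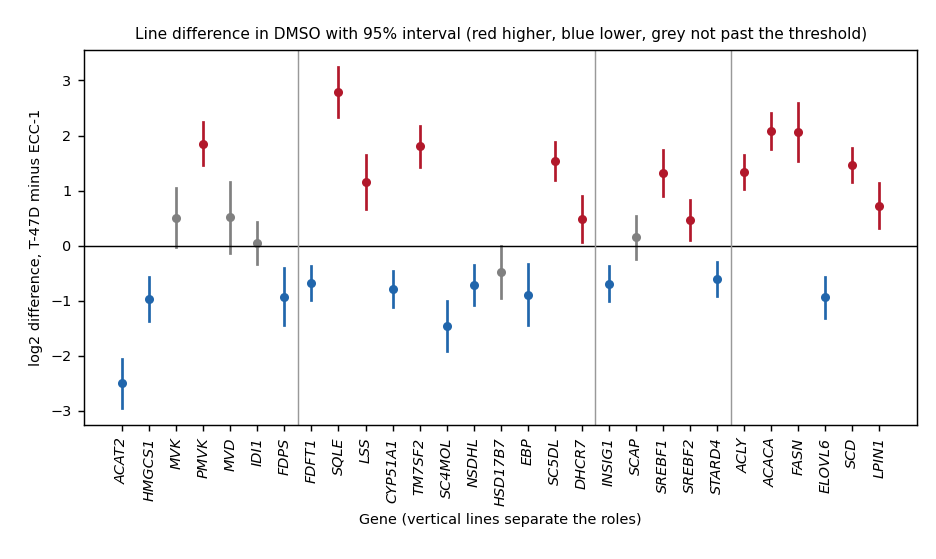
Log2 difference of each gene between T-47D and ECC-1 in DMSO, with its 95% interval from the limma fit. Red points (13) were higher in T-47D, blue points (11) lower, and grey points (5) did not pass the threshold.

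Of the 5 sensing and transport genes, SREBF1 and SREBF2 were higher in T-47D, and INSIG1 and STARD4 lower. SREBF1 had 88.6 and 91.1 RPKM in T-47D and 32.8 and 38.6 RPKM in ECC-1, a 2.50-fold difference (log2 difference 1.32, SE 0.19, adjusted p = 1.56e-05). SREBF2 had 56.9 and 60.1 RPKM in T-47D and 40.1 and 44.5 RPKM in ECC-1 (log2 difference 0.46, adjusted p = 0.0219). Both T-47D libraries of each gene stood above both ECC-1 libraries, with a narrower gap for SREBF2. INSIG1 differed by -0.69 and STARD4, a sterol carrier, by -0.61, while SCAP at 0.15 (adjusted p = 0.463) was not called. The calls of 4 of the 24 genes depended on single libraries or settings. DHCR7 was lost without the first (0.40) or second (0.55) ECC-1 DMSO library or the first T-47D DMSO library (0.30), and also with no scaling (0.38, adjusted p = 0.104) or no filter on low values (adjusted p = 0.0666). SREBF2 was lost without the first ECC-1 (0.39) or either T-47D DMSO library (0.50 and 0.43) and with no scaling (0.37, adjusted p = 0.0668). Both FDPS (-0.65) and EBP (-0.58) were lost when the second DMSO library of T-47D was omitted. Conversely, some alternatives called 3 of the 5 remaining genes, HSD17B7 in 7 of 14, MVK in 4 and MVD in 3, with adjusted p-values down to 0.0137 (HSD17B7), 0.00388 (MVK) and 0.0121 (MVD). The other 20 calls held in all 14 alternatives run, or, for LPIN1, in the 13 in which it passed the filter.

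Over all treatments the lines were apart for 19 of the 29 genes, close to the shares over all tested genes. All 8 T-47D libraries lay above all 8 ECC-1 libraries for 10 genes (PMVK, SQLE, LSS, TM7SF2, SC5DL, SREBF1, ACLY, ACACA, FASN and SCD), where 34.9% of all tested genes did so. All 8 lay below for 9 genes (ACAT2, HMGCS1, FDFT1, CYP51A1, SC4MOL, NSDHL, INSIG1, STARD4 and ELOVL6), where 32.6% of all tested genes did so. The lines overlapped for the other 10, which include LPIN1, EBP, FDPS, DHCR7 and SREBF2. In 14 genes the tables hold several transcripts, 50 rows for the 29 genes, and each of the 21 rows that was not used stood at 78.6 to 100.0% of the one used.

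Of 47 genes around the listed steps, 37 (78.7%) differed between the lines in DMSO, close to the 76.7% of all tested genes. All 3 further genes of SREBP processing were higher in T-47D: MBTPS1, the protease that makes the first cut in SREBP, by 1.74, MBTPS2, which makes the next cut, by 0.98, and INSIG2 by 0.52. The INSIG2 call ended when the second ECC-1 (0.39) or the first T-47D (0.42) DMSO library was omitted. Of 12 other fatty acid genes tested, 5 were higher and 5 lower. ME1, the malic enzyme that supplies NADPH, averaged 0.0206 RPKM in T-47D and 25.6 RPKM in ECC-1 (log2 difference -5.65, adjusted p = 4.95e-15). ACSL4 and FADS2, which activate and desaturate polyunsaturated fatty acids, differed by -3.77 and -2.59 on the log2 scale, and ELOVL5 by 1.11. Of 7 glycerolipid genes, 3 were higher and 3 lower. LPIN2 was listed at 0 in both T-47D DMSO libraries and averaged 6.22 RPKM in ECC-1, while LPIN3 was higher in T-47D by 1.75. Of 11 genes of sterol transport and efflux, 7 were higher and 2 lower, with the sterol exporter ABCG1 at 10.3 RPKM in T-47D and 0.258 RPKM in ECC-1 (log2 difference 3.82). Of 6 genes of other mevalonate branches, 2 were higher, among them GGPS1, which makes geranylgeranyl diphosphate (1.57), and 2 lower, among them PDSS1, which makes the coenzyme Q side chain (-1.16). Of 8 fatty acid oxidation genes, 4 were higher and 1 was lower, ACADM, which starts the breakdown of medium-chain fatty acids (log2 difference -1.55). Besides INSIG2, some calls in these counts were lost in alternatives. PPARA lost its call in 6 of 13, MYLIP in 5 of 14 and SLC25A1 in 3 of 14. ABCA1 lost it in 2 of 13, ACSL1 in 2 of 14 and AGPAT2 in 1 of 14.

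With all 16 libraries in the fit, no gene of the list was called with estradiol in either line, while fits with other libraries or settings called some, as given with the left-out libraries. In T-47D, limma called 3.22% of all tested genes with estradiol against DMSO and 0 of the 29. For ECC-1 it called 1.89% of all tested genes and again 0 of the 29. At an unadjusted limma p under 0.05 there were 4 of the 29 (13.8%) in T-47D and 4 (13.8%) in ECC-1. All tested genes gave 2051 (14.8%) in T-47D and 2125 (15.4%) in ECC-1, so the 29 stood near them. The same libraries did respond at estrogen targets looked up for reference, with earlier results known. GREB1, a receptor cofactor, averaged 60.9 RPKM with estradiol and 11.98 RPKM with DMSO in T-47D (log2 change 2.30, adjusted p = 1.57e-05), and MYC rose there by 2.09. In ECC-1, PGR, the progesterone receptor, averaged 0.774 RPKM with estradiol and 0.071 RPKM with DMSO (1.16, limma adjusted p = 0.00226). Both averages lay under the 1 RPKM of the low-value filter, which took libraries of either line, and PGR was far higher in T-47D. Its test in ECC-1 thus rested on its T-47D levels. At these low ECC-1 levels its change ran from 0.73 to 2.37 over the alternatives. Its call held in all 14 in which it was tested, so this call is weak ground for a response of ECC-1. GREB1 (1.05) and MYC (0.71) were also called in ECC-1, but lost the call in 4 and 6 of 15 alternatives. The 3 comparisons of a line share its DMSO libraries.

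In T-47D the fitted estradiol changes of the 29 ran from -0.60 for SC5DL to 0.44 for PMVK, with a median of -0.06 against -0.01 over all tested genes. SC5DL had 53.4 and 68.8 RPKM with estradiol and 105 and 80.4 RPKM with DMSO. Both estradiol libraries were below both DMSO libraries, and the difference of -0.60 (95% interval -0.95 to -0.25) had an adjusted p of 0.0638 in limma. SREBF1 had 82.6 and 54.2 RPKM with estradiol and 88.6 and 91.1 RPKM with DMSO (-0.42, adjusted p = 0.326), and STARD4 had 15.8 and 14.97 RPKM with estradiol and 22.1 and 17.2 RPKM with DMSO (-0.33, adjusted p = 0.299). PMVK had 63.3 and 35.2 RPKM with estradiol and 34.0 and 35.4 RPKM with DMSO, so that its difference of 0.44 (adjusted p = 0.28) came from the first estradiol library alone. MVD (0.17) and EBP (0.16) had the next largest positive values. Both estradiol libraries lay below both DMSO libraries for 5 of the 29 and above them for none, where 16.4% and 16.9% of all tested genes did so. Without both first estradiol libraries the median was -0.32 against 0.00 over all tested genes, with 26 of the 29 below 0. This sets a second library against DMSO libraries of both numbers. In T-47D DMSO the first library exceeded the second by a median of 0.35 over the 29 genes, against -0.01 over all tested genes. What part of the shift this difference between libraries makes up was not tested. The remaining estradiol library then lay below both DMSO libraries for 19 of the 29 and above for none, where 35.4% and 35.5% of all tested genes did so, and 14 of the 29 had an unadjusted p under 0.05, against 16.5%. The 95% interval lay within 1 log2 unit of 0 for all 29 genes.

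In ECC-1 the changes ran from -0.47 for HSD17B7 to 0.62 for FASN, with a median of -0.14 against 0.00 over all tested genes. FASN had 127 and 68.6 RPKM with estradiol and 57.3 and 63.9 RPKM with DMSO. Both estradiol libraries were above both DMSO libraries, the first by far and the second barely, and the difference of 0.62 (95% interval 0.10 to 1.15) had an adjusted p of 0.251 in limma. ACACA had 19.1 and 15.1 RPKM with estradiol and 12.3 and 12.4 RPKM with DMSO (0.44, adjusted p = 0.194). SCAP, the escort of SREBP, had 35.1 and 21.9 RPKM with estradiol and 20.7 and 21.9 RPKM with DMSO (0.38). HSD17B7 had 12.6 and 14.9 RPKM with estradiol and 23.4 and 15.7 RPKM with DMSO (-0.47), and TM7SF2 had 26.1 and 24.4 RPKM with estradiol and 31.7 and 36.0 RPKM with DMSO (-0.41). FDPS had the third lowest value, at -0.39. All 7 mevalonate genes had a fitted value below 0 and all 6 fatty acid genes one above 0, with medians of -0.21 and 0.30. None of these 13 values passed the threshold. Over all tested genes, 6906 estradiol values in ECC-1 lay below 0 and 6921 above. The split was not particular to estradiol. Against the same DMSO libraries, BPA had 7 of the 7 mevalonate genes below 0 and 5 of the 6 fatty acid genes above. Genistein had 6 of 7 below and 5 of 6 above. Over all tested genes, 7687 BPA values lay below 0 and 6067 above, and 7822 genistein values below and 5928 above. Without both first estradiol libraries all 7 mevalonate genes again had a value below 0, with a median of -0.16, while 5 of the 6 fatty acid genes were above 0 and their median was 0.097. Both estradiol libraries lay below both DMSO libraries for 13 of the 29 and above for 5, where 21.8% and 21.7% of all tested genes did so, and without the first libraries the remaining one lay below for 16 and above for 5, against 38.6% and 33%. The 95% interval lay within 1 log2 unit of 0 for 28 genes, and that of FASN reached 1.15.

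**Figure D3:**
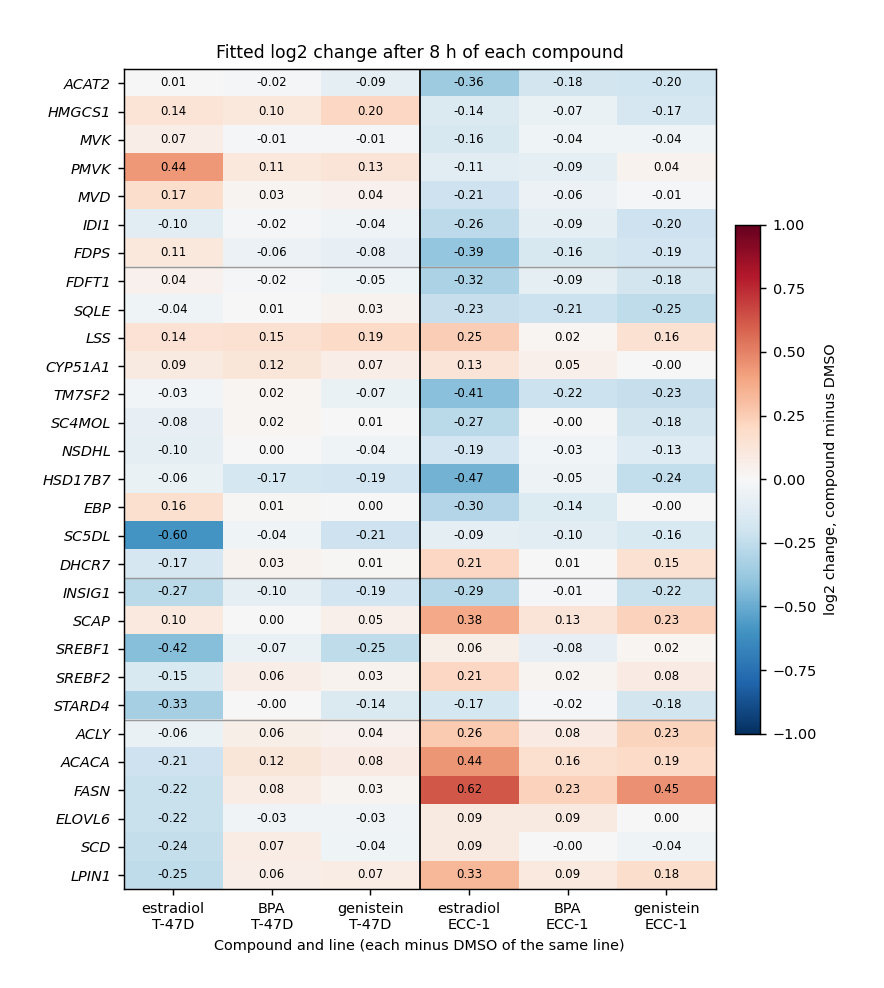
Fitted log2 change of each gene with estradiol, BPA or genistein against DMSO of the same line, T-47D on the left and ECC-1 on the right, with horizontal lines between the roles. The values run from -0.60 (SC5DL, T-47D, estradiol) to 0.62 (FASN, ECC-1, estradiol), and none passed the threshold.

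None of the 29 genes was called with genistein or with BPA in either line. With genistein, 0.803% of all tested genes were called in T-47D and 0.969% in ECC-1, and with BPA 0% in T-47D (0 genes, with 116 at an unadjusted p under 0.05) and 0.195% in ECC-1. None of the 29 had an unadjusted p under 0.05 in these 4 comparisons. Of all tested genes, 7.67% (genistein) and 2.51% (BPA) did so in ECC-1, and 5.79% and 0.839% in T-47D. Medians were 0.00 with genistein in T-47D, -0.04 with genistein in ECC-1, 0.01 with BPA in T-47D and -0.03 with BPA in ECC-1. The highest value was that of FASN with genistein in ECC-1, where its libraries had 87.6 and 78.7 RPKM with genistein and 57.3 and 63.9 RPKM with DMSO. Both genistein libraries were above both DMSO libraries by more than either pair differed. The difference was 0.45 (95% interval -0.07 to 0.98, adjusted p = 0.767). With BPA in ECC-1, FASN had 68.4 and 74.1 RPKM (0.23). In T-47D the values with genistein ran from -0.25 for SREBF1, at 75.6 and 74.9 RPKM with genistein and 88.6 and 91.1 RPKM with DMSO, to 0.20 for HMGCS1. With BPA in T-47D they ran from -0.17 for HSD17B7 to 0.15 for LSS. The 95% interval lay within 1 log2 unit of 0 for all 29 genes in each of these 4 comparisons. GREB1 and MYC rose with genistein in T-47D, by 1.84 and 1.77. With BPA they had values of 0.48 and 0.61 in T-47D, neither past the threshold.

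In ECC-1, both genistein libraries lay above both DMSO libraries for 6 of the 29 and below for 10, where 21.9% and 29.2% of all tested genes did so, and both BPA libraries lay above for 4 and below for 7, where 15.3% and 19.7% did so. In T-47D, both genistein libraries lay above for 1 and below for 1, against 17.9% and 18.5% of all tested genes, and both BPA libraries above for 2 and below for 1, against 10.5% and 10.2%. Genistein and BPA were given at the same dose and time, which allows a direct contrast, 1 pair of compounds in each line. None of the 29 differed between genistein and BPA in T-47D (0.405% of all tested genes called) or in ECC-1 (0.0434% called). The differences ran from -0.19 (SREBF1) to 0.10 in T-47D and from -0.21 (INSIG1) to 0.22 (FASN) in ECC-1, and every 95% interval lay within 1 log2 unit of 0. Estradiol was given at another dose and was not contrasted with them.

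The responses of the lines were also set against each other through the interaction of line and compound. None of the 29 differed in its response to estradiol (1.73% of all tested genes called), genistein (0.586%) or BPA (0.0434%). For estradiol, 4 of the 29 (13.8%) had an unadjusted limma p under 0.05, near the 16.5% of all tested genes. These were FASN with -0.84 (95% interval -1.59 to -0.10, adjusted p = 0.251), ACACA with -0.65 (adjusted p = 0.169), LPIN1 with -0.59 (adjusted p = 0.295) and SC5DL with -0.51 (adjusted p = 0.29). In each, the fitted T-47D response lay below the ECC-1 response. The interval of the estradiol interaction lay within 1 log2 unit of 0 for 20 of the 29.

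In T-47D the estradiol result depended on which libraries entered the fit. FASN in T-47D had 290.5 RPKM in the first estradiol library and 166 RPKM in the second, against 245 and 267 RPKM in DMSO. The first stood above and the second below both DMSO libraries. SREBF2 had 62.5 and 44.2 RPKM with estradiol and 56.9 and 60.1 RPKM with DMSO, the same arrangement. When both first estradiol libraries were left out and 13758 genes tested, 3 of the 29 fell with estradiol in T-47D, where 4.24% of all tested genes were called. These were SREBF1 (-0.73, SE 0.12, limma adjusted p = 0.00474), FASN (-0.63, SE 0.11, adjusted p = 0.00479) and SREBF2 (-0.40, SE 0.09, adjusted p = 0.0253), and they rest on the second T-47D estradiol library. Their adjusted p-values over all alternatives ran from these values up to 0.807 for SREBF1, 0.972 for FASN and 0.973 for SREBF2. With the first T-47D estradiol library alone left out, the values were the same (-0.73, -0.63 and -0.40) and none was called, SREBF1 having an adjusted p of 0.0835. SC5DL, called under quantile normalization (-0.65, adjusted p = 0.0438), and PMVK were called in neither of these fits, and PMVK had 0.01 without both first libraries. In ECC-1 none of the 29 was called with estradiol in that fit, with 1.51% of all tested genes called, the median over the 29 was -0.11, and FASN had 0.18 (adjusted p = 0.573). The estradiol response of FASN differed between the lines by -0.81 in that fit (adjusted p = 0.0159, over the alternatives up to 0.698), with 1.48% of all tested genes called. FASN was also higher with genistein in ECC-1 there, by 0.46 (adjusted p = 0.0126, over the alternatives up to 1), with 2.98% of all tested genes called. A lone estradiol library is assumed in these fits to vary like the other groups.

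**Figure D4:**
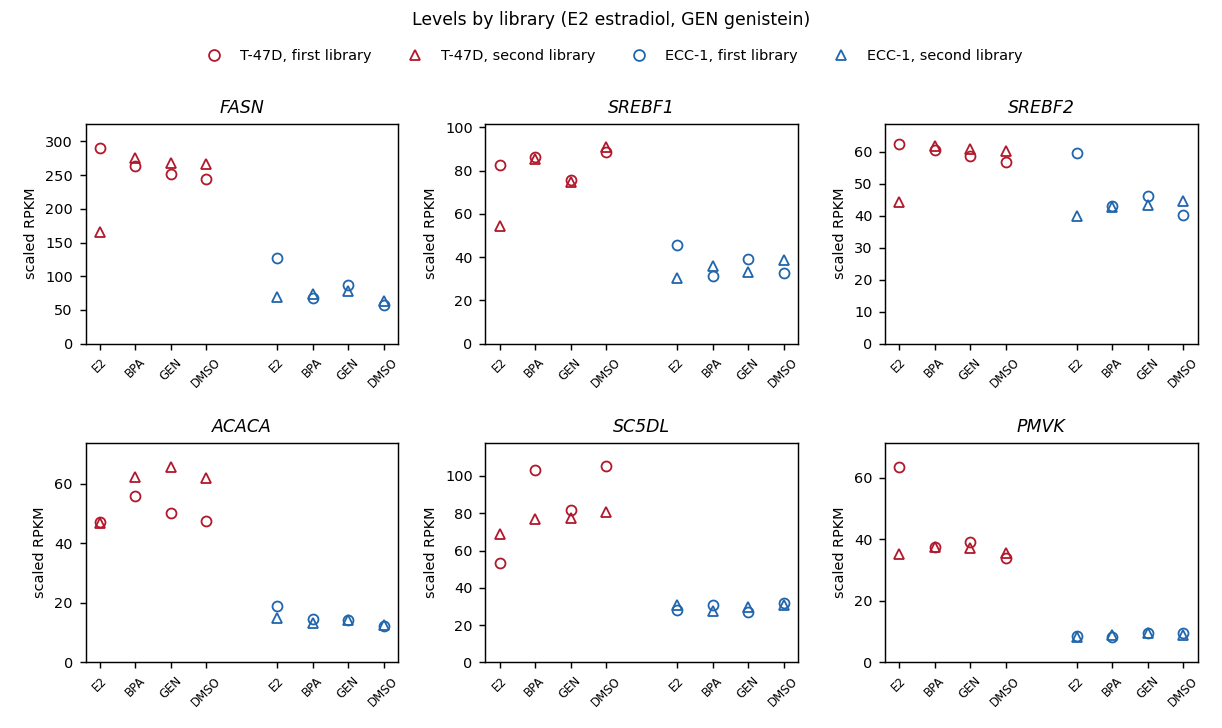
Level of 6 genes in each of the 16 libraries, in scaled RPKM, with first libraries as circles and second libraries as triangles, T-47D in red and ECC-1 in blue. With estradiol in T-47D, FASN, SREBF1, SREBF2 and PMVK have a first library far above the second. For these genes the T-47D libraries of BPA, genistein and DMSO lie closer together. Those of SC5DL with BPA and DMSO, and of ACACA with genistein and DMSO, lie further apart.

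When the second estradiol library of a line was left out, so that the first stood alone, other genes were called, in shares near those of all tested genes. In T-47D, where 22.6% of all tested genes were called, these were 5 higher genes, PMVK (0.86), MVD (0.85), EBP (0.68), MVK (0.60) and LSS (0.60), and SC5DL lower (-0.78). In ECC-1, where 15.5% of all tested genes were called, they were FASN (1.06), SCAP (0.71), ACACA (0.60) and ACLY (0.48), all higher. None of these 9 higher calls was made without the first libraries. With all libraries, LPCAT3 was the single gene of the further pathway lists that was called with a compound, in T-47D with estradiol. It codes for an enzyme that builds polyunsaturated phospholipid. It averaged 8.35 RPKM with estradiol and 12.7 RPKM with DMSO (log2 change -0.58, adjusted p = 0.0225), and that call ended in 6 alternatives. These were the fits without both first estradiol libraries (-0.41, adjusted p = 0.0648), without that of T-47D alone (-0.41), and without the first (-0.60) or second (-0.57) DMSO library of T-47D, the fit on T-47D alone (-0.57, adjusted p = 0.115), and array weights (adjusted p = 0.25, the highest of the alternatives).

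The sterol genes had a further pattern that did not follow the treatments. In T-47D the first library of a group exceeded the second in all 4 treatments for 20 of the 29 genes (69.0%), where 9.19% of all tested genes did so. These were 10 of the 11 sterol genes, 5 of the 7 mevalonate genes, 3 of the 6 fatty acid genes and 2 of the 5 sensing and transport genes. In ECC-1 this held for 2 of the 29, against 8.6% of all tested genes. Without the estradiol groups it held in T-47D for 22 of the 29, all 11 sterol genes among them, against 17.6% of all tested genes. SQLE in T-47D had 67.3 and 55.3 RPKM with estradiol, 77.3 and 51.4 RPKM with BPA, 71.1 and 58.1 RPKM with genistein, and 79.8 and 49.3 RPKM with DMSO, the first library given first. SC4MOL had 42.1 and 41.2, 54.0 and 37.2, 50.8 and 38.7, and 53.9 and 36.2 RPKM in the same order, and MVK 73.5 and 34.8, 52.8 and 43.6, 52.8 and 43.4, and 56.1 and 41.5 RPKM. HMGCS1 likewise had a higher first library in each treatment. The first libraries of DMSO, BPA and genistein stood above every second library for SQLE, SC4MOL and MVK. SREBF1, FASN and ACACA did not share it, with second libraries level with or above the first in DMSO. The median difference of the 11 sterol genes between first and second library was 0.32 with estradiol, 0.32 with BPA, 0.29 with genistein and 0.39 with DMSO on the log2 scale, where all tested genes had 0.00, -0.01, 0.00 and -0.01. The measure was chosen after the values were seen and carries no test. The labels give replicate numbers and say nothing of what the first libraries share, and whether a culture or a library step moved with them was not tested.

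**Figure D5:**
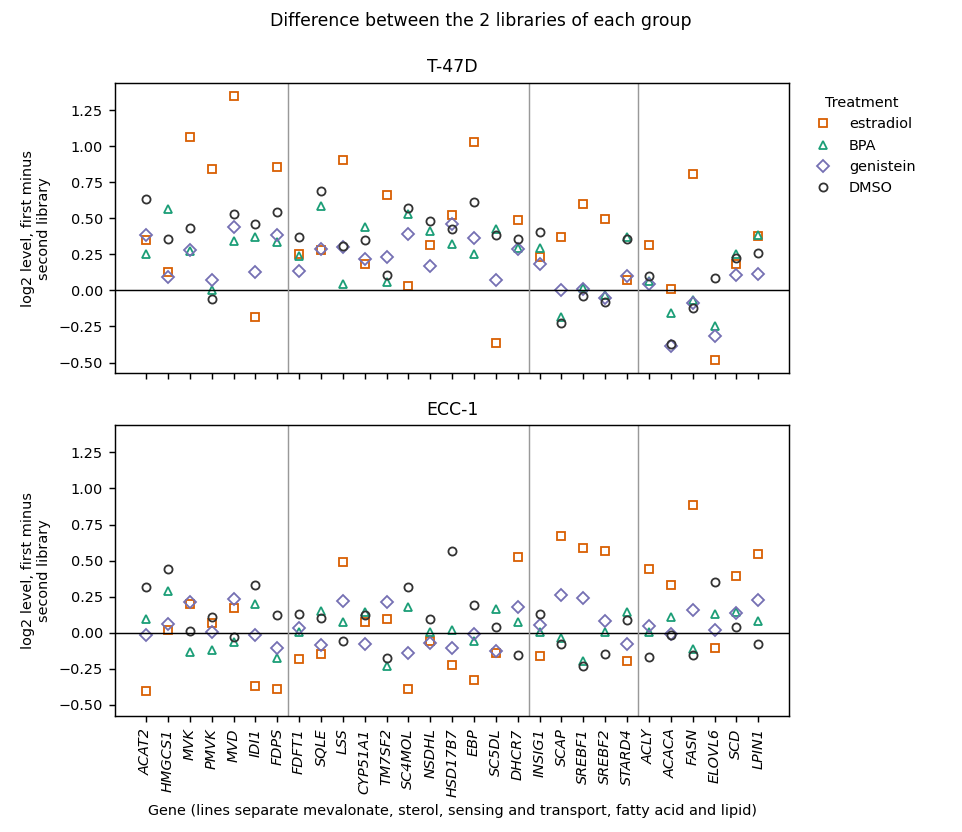
Log2 level of the first minus the second library of each group, by gene, in T-47D (upper) and ECC-1 (lower), with 1 symbol per treatment. In T-47D nearly all symbols of the mevalonate and sterol genes lie above 0, and in ECC-1 they lie on both sides of 0.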

How the data were processed

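RNA of 16 libraries was sequenced. The authors deposited RPKM values, 1 table per library with 32062 RefSeq transcripts. Alignment was by Bowtie against hg19, per the submitters' processing notes, with no version given. Per the labels' protocols the libraries came from polyadenylated RNA by a non-directional transposase method. The counting method is not given in the sources used. Low values rise in steps of 1 read, which gave an estimate of each library's depth; of values under 10 reads, 61.4 to 63.6% lay within 0.1 read of a whole number (20% by chance).

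Symbols with several transcripts were represented by the one of highest mean. Scale factors were median ratios over 7547 genes that reached 5 RPKM in every library (0.938 to 1.054). Genes reaching 1 RPKM in 2 or more libraries were tested on log2(scaled RPKM + 0.5), which understates changes of low genes. A single fit with 8 group means over 16 libraries used limma 3.58.1 in R 4.3.3 (eBayes with trend, 8 residual and 6.9 prior degrees of freedom), with Benjamini-Hochberg adjustment within each of 12 contrasts, and was checked on simulated data. With 2 libraries against 2, permutation cannot go below p = 0.333 and was not used.

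Members and further lists were chosen with earlier results of these data known. All members may be named; where none was called, the 3 largest rises and falls of a contrast may be given, and genes printed beyond that were chosen after their values were seen. Alternatives were the scaling, pseudocount, low-value filter, transcript choice, array weights, a replicate block, fits on 1 line, and left-out libraries.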

Additional observations from a re-analysis of the deposited data

How the results depend on the processing

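The groups of 2 libraries limit the precision: over the 29 genes, the 95% interval extended a median of 0.40 log2 units each way for treatments and 0.56 for interactions. In 7 comparisons (BPA against DMSO, genistein against BPA, the BPA and genistein interactions, and genistein against DMSO in T-47D) 0 of the 29 genes were called under any alternative run. Between the lines in DMSO, 22 to 27 were called, and 22 to 24 with a library left out. With libraries left out in turn, the count was 0 to 4 for estradiol in ECC-1, 0 to 6 for estradiol in T-47D and 0 to 5 for the estradiol interaction. Without both first estradiol libraries it was 3 for estradiol in T-47D, 1 for the interaction and 1 (FASN) for genistein in ECC-1. Array weights gave 1 for genistein in ECC-1 (FASN, 0.45) and quantile normalization gave 1 for estradiol in T-47D (SC5DL, -0.65). The cause of these shifts was not tested.

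Some fitted changes with estradiol in T-47D turned sign. Over left-out libraries MVK ran from -0.47 to 0.60, MVD from -0.50 to 0.85, LSS from -0.31 to 0.60, EBP from -0.36 to 0.68, SREBF2 from -0.40 to 0.10 and FASN from -0.63 to 0.19. Without both first estradiol libraries MVK had -0.47, MVD -0.50, LSS -0.31 and EBP -0.36. In the estradiol interaction MVK ran from -0.30 to 0.77, MVD from -0.30 to 1.05 and EBP from -0.062 to 0.97, and without both first estradiol libraries they had -0.20 (MVK), -0.21 (MVD) and -0.22 (EBP).

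Counts over all tested genes moved more than 1.5 times in some alternatives, from 110 to 2148 for estradiol in ECC-1 (262 in the fit of all libraries), from 92 to 3113 for estradiol in T-47D (445) and from 60 to 2202 for the estradiol interaction (239). For genistein they ran from 58 to 841 in ECC-1 (134) and from 47 to 271 in T-47D (111), and for BPA from 10 to 68 in ECC-1 (27) and from 0 to 3 in T-47D (0).

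With the replicate number as a block, 0 of the 29 genes were called in each treatment comparison and 27 between the lines. The added 3 were MVK (0.51, adjusted p = 0.0161), MVD (0.51, adjusted p = 0.0275) and HSD17B7 (-0.48, adjusted p = 0.0144), and no call between the lines was lost. Deviations of same-numbered libraries correlated at -0.22 to 0.41 in T-47D, over 0.1 for 4 of 6 pairs of groups. Among them were the 3 pairs without estradiol (0.21 to 0.41). In ECC-1 they correlated at -0.19 to 0.30, over 0.1 for 3 of 6. The fit of all libraries took no block, so any spread that same-numbered T-47D libraries shared stayed in its error.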
